A study of Homo sapiens with 18 samples.

Results

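JJN3 cells treated with 0.4 mM amiloride were compared, gene by gene, with JJN3 cells treated with 0.4 mM TG003, both for 24 h. The genes described are protein-coding genes whose symbols do not begin with RPL or RPS, and pseudogenes were left out. The count files hold 19304 such genes among 57905 genes of every class, and 11915 of the 19304 passed the filter on low counts and were tested. JJN3 is a human plasma cell leukemia line, grown in RPMI medium with fetal bovine serum. The compared groups had 3 strand-specific RNA-seq libraries each, and 3 JJN3 libraries labelled untreated (DMSO), for which no duration is given, entered the same fit. The 6 compared libraries belong to a series of 18, of which the other line, the myeloma line KMS12-BM, received 0.1 mM amiloride or 0.4 mM TG003. The doses of the drugs were unequal in that line, so its values are given beside those of JJN3 without a test. Nothing in the labels ties the libraries of 1 group to different cultures, and each p-value therefore reflects the variation among these libraries alone, which may be technical.

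Amiloride is a potassium-sparing diuretic that blocks epithelial sodium channels and, at higher concentrations, sodium-proton exchangers of the plasma membrane. TG003 is a benzothiazole inhibitor of the CDC-like kinases (CLK), which phosphorylate the serine- and arginine-rich (SR) proteins that help the spliceosome to find exons. Both drugs have been used to perturb splicing in tumour cells. Plasma cells secrete antibody, depend on the transcription factor IRF4, and carry a large endoplasmic reticulum that makes them sensitive to protein and amino acid stress. Myeloma cells grow from them and keep much of their gene programme.

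Reads in genes ranged from 23707695 to 41755385 per amiloride library, from 27563679 to 44601334 per TG003 library and from 25265042 to 37551639 per DMSO library. All 9 fixed plasma cell markers had a mean above 1 CPM (the read count expressed per 1000000 reads of the TMM-scaled library), and their summed level was 1900 to 2370 CPM with amiloride, 1470 to 1670 with TG003 and 2540 to 2820 with DMSO. Of the T cell, myeloid, erythroid and epithelial markers, 1 each passed 1 CPM (CD3E, CD14, HBB and EPCAM), and no stromal or mature B cell marker did. The summed erythroid markers were at 40.6 to 63.9 CPM with amiloride, 21.5 to 29.1 with TG003 and 49.3 to 65.1 with DMSO, the epithelial ones at 28.8 to 42.5, 20 to 20.8 and 22.2 to 25.2, and their part in the results below was not tested. The TG003 libraries also stood apart in how their reads had been placed. Processed pseudogenes held 0.1135% to 0.1301% of reads in genes with TG003, against 4.496% to 4.651% with amiloride and 5.458% to 5.613% with DMSO. Reads placed at more than 1 site made up 8.342% to 9.125% of records with TG003, 14.7% to 15.22% with amiloride and 16.57% to 17.44% with DMSO. A difference in alignment or library handling and the effect of TG003 cannot be told apart on the TG003 side of any gene that shares sequence with a copy, whereas amiloride and DMSO libraries lay closer together on both measures.

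Messenger levels differed between the drugs for most genes. Of the 11915 tested genes, 3419 (28.7%) were higher and 3725 (31.3%) were lower with amiloride than with TG003 (edgeR quasi-likelihood test, Benjamini-Hochberg adjusted p under 0.05), so 60% were called in all. Over all 15704 tested genes of every class, 33.3% were higher and 28.9% lower, 62.2% in all. A difference of at least 2-fold was called in 567 genes (4.76%) in the higher and 869 (7.29%) in the lower direction. The median log2 difference was -0.0149, and 90% of the genes lay between -1.18 and 0.989. Against DMSO, 22.1% of the genes rose and 25% fell with amiloride, and 27.9% rose and 27.4% fell with TG003. These last comparisons share the DMSO libraries with each other, and each shares its treated libraries with the comparison of the drugs, so they are given side by side only to place each group. The CPM ranges of the drugs did not overlap for 7801 of the 11915 genes (65.5%), a share not counted over genes of every class.

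Many of the largest differences were in genes with a near copy elsewhere in the genome. The retrogene EIF2S3B, an intronless copy of the gene for the gamma subunit of the translation initiation factor eIF2, shows the pattern. Its coding sequence is 1 exon at chr12:10658502-10659917 (GRCh37, plus strand), whereas that of its parent EIF2S3 is spread over 12 exons of chrX:24073086-24094899 (plus strand). Both coding sequences are 1416 bases long, differ at 25 bases and are 98.2% identical, so that a short read that crosses neither a differing base nor an exon junction fits either locus. The first 120 coding bases are shown because they carry the resemblance, with the 3 differing bases in capitals.
EIF2S3: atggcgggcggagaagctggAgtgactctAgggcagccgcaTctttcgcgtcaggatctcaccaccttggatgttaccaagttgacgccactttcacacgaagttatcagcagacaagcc
EIF2S3B: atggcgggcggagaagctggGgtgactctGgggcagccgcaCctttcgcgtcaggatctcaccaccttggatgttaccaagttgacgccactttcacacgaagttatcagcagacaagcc

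EIF2S3B stood at 75.4, 68.7 and 77.3 CPM in the 3 amiloride libraries, at 0.888, 0.81 and 0.816 with TG003 and at 82.6, 89.3 and 84.3 with DMSO. Its parent went the other way, with 122, 131 and 128 CPM with amiloride, 193, 212 and 214 with TG003 and 129.5, 136 and 135 with DMSO. For both genes the amiloride and DMSO libraries lay close together and the TG003 libraries far from them (log2 difference between amiloride and TG003 6.46 ± 0.11 for the copy and -0.70 ± 0.068 for the parent, ± SE, edgeR adjusted p = 1.1e-14 and 1.26e-06). PPP1R2B, a copy of a protein phosphatase 1 inhibitor gene, had 0 reads in all 3 TG003 libraries and 16.8, 15 and 15.8 CPM with amiloride, at least 547-fold higher against a floor of 3 counts over the TG003 group. GNG5B, a copy of a G protein gamma subunit gene, likewise had 0 reads with TG003 and was at least 354-fold higher with amiloride. These 3 genes, with PABPC3, UQCRHL, NUDT4B, H3-5, GLUD2, CSNK2A3, FKBP1C, ZC3H11B and ZC3H11C, had the 12 largest higher values among called genes with no processed pseudogene named after them, a mean of at least 5 CPM and no overlap between the drugs. All 12 have a near copy, and all lay within 1 log2 unit of DMSO with amiloride.

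Several multi-exon parents of copies were lower with amiloride, but not every parent was. PPP1R2, the parent of PPP1R2B, was higher (log2 difference 0.40 ± 0.073, edgeR adjusted p = 0.000353), and FKBP1A (0.12 ± 0.065) and GNG5 (-0.17 ± 0.14), the parents of FKBP1C and GNG5B, were not called (edgeR adjusted p = 0.117 and 0.31). PSMC1, an ATPase subunit of the proteasome cap, stood at 5.47, 6.77 and 6.32 CPM with amiloride, 136, 130.4 and 115 with TG003 and 5.66, 4.77 and 6.22 with DMSO (log2 difference -4.35 ± 0.12, edgeR adjusted p = 9.66e-13). When the reads of pseudogenes named after PSMC1 were added to it, the difference turned to 0.274 (edgeR adjusted p = 0.0119). HNRNPA1, which packages nascent RNA, was at 164, 180.2 and 194 CPM with amiloride and 1086, 1084 and 1049.6 with TG003, NPM1, a nucleolar chaperone, at 534, 528 and 481 and 1756, 1737 and 1809, and both have a near copy. With their pseudogene reads added, the log2 differences were -1.27 for HNRNPA1 and -0.64 for NPM1, and both stayed called. Of the 12 largest lower values under the same conditions, which leave out PSMC1 and every other gene with a processed pseudogene named after it, NBPF8, NPIPB4, RASA4, MFAP2, RAMAC, TMA7, GTF2H2C and CD8B have a near copy, and DGAT1, TTC12, LHPP and EPHX2 have none. Of the 11915 tested genes, 2411 have a near copy and 9504 have none by the sequence rule used. In the lists below, a gene with a near copy is named as such wherever its value is given.

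A second difference ran through genes without copies and followed the number of exon junctions in the transcript. Among 177 genes with no junction, the median log2 difference between amiloride and TG003 was 0.482, and among 165 genes with over 40 junctions it was -0.398. The same medians were 0.139 and -0.0299 between amiloride and DMSO, and -0.369 and 0.364 between TG003 and DMSO, so the gradient lay on the TG003 side. The share of genes called higher went from 65.5% in the first of these bins to 6.06% in the last. The rank correlation with junctions per kilobase across the 9504 genes without a near copy was -0.426 for amiloride against TG003, -0.0567 for amiloride against DMSO and 0.439 for TG003 against DMSO. These values describe genes that share the same 9 libraries and are not independent of each other. In KMS12-BM the correlations were 0.323 for TG003 and -0.134 for amiloride, each against DMSO. Whether the gradient comes from the drug or from read placement cannot be told apart. The lists below were therefore also counted over genes without a near copy after the gradient was removed.

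**Figure D1:**
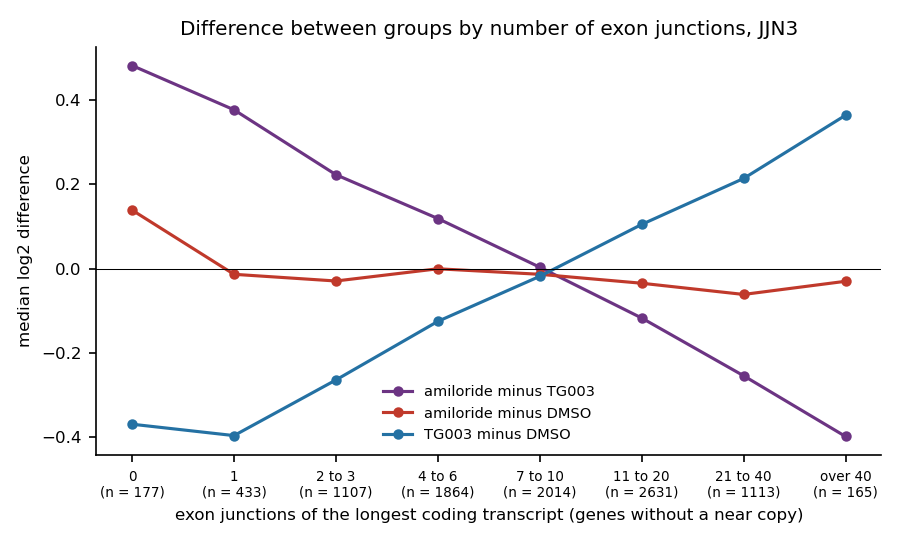
Median log2 difference (vertical axis) over genes without a near copy, by number of exon junctions of the longest coding transcript (horizontal axis, number of genes under each bin), for amiloride minus TG003, amiloride minus DMSO and TG003 minus DMSO in JJN3. The amiloride minus TG003 line falls from 0.482 to -0.398, the TG003 minus DMSO line rises from -0.369 to 0.364, and the amiloride minus DMSO line stays between -0.0611 and 0.139.

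Among the 9504 genes without a near copy, 2817 (29.6%) were higher and 2840 (29.9%) lower, and the counts were 2747 (28.9%) and 2461 (25.9%) after removal of the junction gradient. A 2-fold difference was called for 469 (4.93%) higher and 616 (6.48%) lower genes without a near copy, for 408 (4.29%) and 422 (4.44%) after removal of the gradient, and for 98 (4.06%) and 253 (10.5%) of the 2411 genes with a near copy. A list with about 3 genes in 10 called each way is therefore at the background. The lists were chosen with earlier results of these data known, and their counts are descriptions.

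Of 31 gene lists, those with the highest medians were immediate-early genes, the aryl hydrocarbon receptor pathway and plasma cell factors. The lowest medians belonged to mitochondrially encoded messengers, DNA replication, DNA repair and mitosis. These medians still hold the junction gradient and near copies. With near copies left out and the gradient removed, heat shock genes were highest (0.531 over 6 genes). The receptor pathway stood at 0.484, plasma cell factors at 0.465 and immediate-early genes at 0.409. Mitochondrial messengers were at -2.11 (1 gene), histones at -1.37 (6 genes), repair at -0.548, replication at -0.4 and mitosis at -0.0852. The plot of list medians sets the uncorrected medians beside each drug's own difference from DMSO. The lists differed in which side of the comparison their median came from. Mitochondrial messengers other than MT-ND6 were lower on the amiloride side, replication and repair genes lay on both sides of DMSO, and plasma cell genes were lower on the TG003 side.

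**Figure D2:**
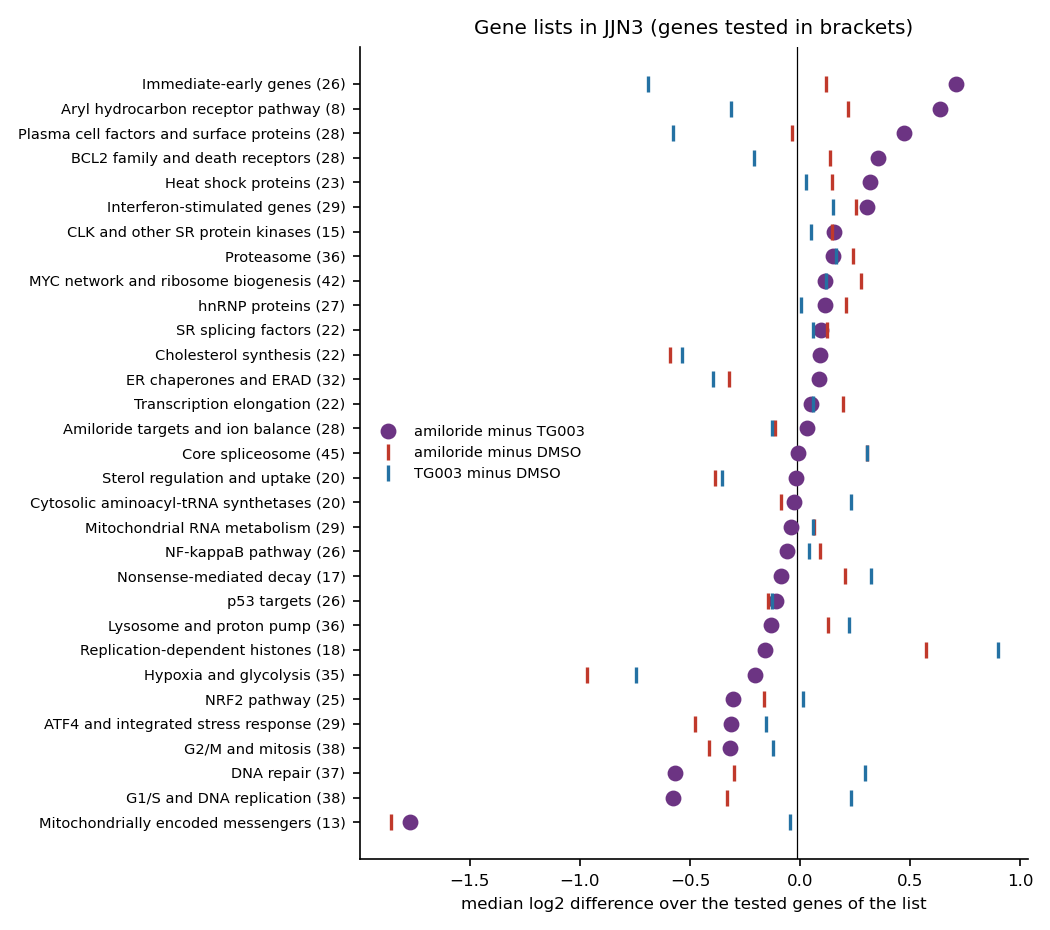
Median log2 difference (horizontal axis) over the tested genes of each of 31 lists (vertical axis, number of tested genes in brackets) in JJN3; circles give amiloride minus TG003, and ticks give each drug minus DMSO. The vertical line is the median of all tested genes, -0.0149; list medians run from -1.77 (mitochondrially encoded messengers) to 0.707 (immediate-early genes).

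Without near copies, the 12 largest values in the higher direction included CCR2, CCL2, CYP1B1, EMP1, IGF1, BHLHE41, DDX47, KCNN3, CHODL, NAT8L and DDN. CCR2 (chr3:46395355-46402431, GRCh37), the receptor for the chemokine CCL2, stood at 91.3, 77.2 and 75.2 CPM with amiloride, 32.8, 36 and 45.5 with DMSO and 6.4, 6.75 and 8.76 with TG003. Its 3 groups did not overlap, and amiloride and TG003 libraries lay on opposite sides of DMSO (11.1-fold between the means, log2 difference 3.47 ± 0.15, edgeR adjusted p = 1.02e-09). In CCR2, 4.49% of the coding sequence recurs elsewhere, just under the 5% limit of the rule for a near copy. CCL2 (chr17:32582293-32584227), a chemokine that attracts monocytes, was at 31.8, 17.6 and 24.1 CPM with amiloride and 4.96, 2.47 and 2.64 with TG003, and with DMSO at 22.6, 12.4 and 17.5, which overlapped the amiloride values. IGF1 (chr12:102789652-102875522), a growth factor for myeloma cells, was at 171, 168 and 145 CPM with amiloride, 104, 109 and 122 with DMSO and 27.2, 26.7 and 26 with TG003, again without overlap (log2 difference 2.59 ± 0.087). Of these 12 genes, 9 were called higher with amiloride than with DMSO, and 11 were called lower with TG003 than with DMSO. They were chosen by the largest differences between the drugs in the same libraries, so these counts follow in part from the choice.

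BHLHE41, a transcriptional repressor of the circadian clock, stood at 78.2, 60.4 and 69.3 CPM with amiloride against 13.3, 10.1 and 12.6 with TG003 and 31.2, 26.6 and 30.5 with DMSO. KCNN3, a calcium-activated potassium channel, was at 104, 119 and 134 CPM with amiloride, 19.2, 26.4 and 21.1 with TG003 and 62.8, 81.9 and 77.7 with DMSO. For both genes DMSO lay between the drugs and no group overlapped another. DDX47, an RNA helicase of ribosome assembly, was at 13.6, 6.38 and 14.4 CPM with amiloride, of which the second library was low, and at 1.63, 2.36 and 2.26 with TG003. In KMS12-BM, CCR2 was 0.34 from DMSO with amiloride and -2.80 with TG003 on the log2 scale, and KCNN3 was -2.12 and -2.36.

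In the lower direction the largest values without near copies were in DGAT1, TTC12, LHPP, EPHX2, MAP4K2, RARS2, FANCL, NDUFC1, PHGDH, CPXM1, CHD1L and CTSF. DGAT1, which adds the last fatty acid to triglycerides, stood at 7.42, 7.27 and 9.13 CPM with amiloride, 15.2, 17.4 and 14.4 with DMSO and 51.1, 45.7 and 46.4 with TG003. Amiloride libraries were all below DMSO and TG003 libraries all above it (5.98-fold higher with TG003, log2 difference -2.58 ± 0.11, edgeR adjusted p = 1.78e-10). CHD1L (chr1:146714304-146767446), a chromatin remodeller recruited by poly(ADP-ribose), was at 31, 37.6 and 30.8 CPM with amiloride, 99.8, 87.9 and 85.6 with DMSO and 130.1, 137 and 140.1 with TG003, without overlap. CPXM1, a carboxypeptidase-like secreted protein, was lowest with amiloride and not called between TG003 and DMSO, at 2.37, 3.28 and 0.981 CPM against 9.03, 8.28 and 9.79 with TG003 and 12.1, 12.2 and 14.2 with DMSO. RARS2, the mitochondrial arginyl-tRNA synthetase, lay apart on the TG003 side, at 5.59, 5.91 and 4.95 CPM with amiloride, 8.79, 6.4 and 5.11 with DMSO and 27.5, 26.1 and 28.4 with TG003 (log2 difference -2.32 ± 0.15, and -1.66 without the gradient). Of these 12 genes, 11 were called lower with amiloride and 10 higher with TG003, each against DMSO, and all 12 kept their call after removal of the junction gradient. Because the 12 were chosen by the largest differences between the drugs in the same libraries, these counts follow in part from the choice. The TG003 call of NDUFC1 against DMSO was lost with a block on library order within the groups (edgeR adjusted p = 0.0446 without and 0.0508 with the block).

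Mitochondrially encoded messengers gave the lowest list median. The mitochondrial genome encodes 13 messengers for subunits of the respiratory chain, copied as long transcripts from both strands and cut at the tRNAs between them. Of the 13, 12 were lower with amiloride than with TG003 and MT-ND6 was higher, with a median log2 difference of -1.77 against -0.0149 over all tested genes. Against DMSO, 12 fell and MT-ND6 rose with amiloride (median -1.86), and none of the 13 was called with TG003 (median -0.0464). All but MT-ND3 have a near copy in the nuclear genome, and the part of read placement in their values was not tested. In MT-ND3, 4.11% of the coding sequence recurs elsewhere, just under the 5% limit of the rule, and its log2 difference was -1.72 (edgeR adjusted p = 6.46e-05).

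MT-CO1, a core subunit of cytochrome c oxidase, stood at 481, 564 and 596 CPM with amiloride, 4419.7, 6228 and 4712 with TG003 and 5546, 6065 and 5036 with DMSO. The amiloride libraries lay far below all 6 others (9.36-fold between the drug means, log2 difference -3.23 ± 0.14, edgeR adjusted p = 6.39e-10). MT-CO2, the second core subunit, was at 496, 579.5 and 759 CPM with amiloride and 3000.3, 4141 and 2863 with TG003, and MT-CYB, cytochrome b of complex III, at 247, 279.8 and 396 and 1116, 1665 and 1207. MT-ND5, a proton-pumping subunit of complex I, was at 217, 246 and 354 CPM with amiloride and 1535, 2404 and 1705 with TG003 (log2 difference -2.79 ± 0.24). The smallest decrease was that of MT-ND2, another complex I subunit, at 511, 619 and 825 CPM with amiloride, 947, 1341 and 973 with TG003 and 1014, 1265 and 955 with DMSO. Its amiloride values still did not overlap those of TG003 (log2 difference -0.74 ± 0.20, edgeR adjusted p = 0.0107).

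MT-ND6 is the only messenger on the opposite mitochondrial strand. It stood at 434, 348 and 358 CPM with amiloride, 12.8, 35.6 and 15.8 with TG003 and 16.6, 31.5 and 22.4 with DMSO, a log2 difference of 4.13 ± 0.45 (edgeR adjusted p = 0.000159). All 3 amiloride libraries were above all 6 others, and without TG003 library 2 the log2 difference was 4.74. The strand setting used for counting is not given in the sources used here, so reads of MT-ND6 and reads from the strand opposite to it cannot be told apart. In KMS12-BM, with less amiloride, MT-CO1 was -6.54 and MT-ND6 2.70 from DMSO with amiloride, and 0.064 for MT-ND6 with TG003. The nuclear genes that copy, cut and stabilise mitochondrial RNA had 8 of 29 higher and 11 lower with a median of -0.0422, and 5 of 23 higher and 7 lower without near copies and gradient. Those 5 were TFB2M, REXO2, HSD17B10, FASTKD5 and TBRG4. TFAM, which packages mitochondrial DNA and starts its transcription, stood at 117, 117 and 106 CPM with amiloride and 102, 119 and 117 with TG003 and was not called (near copy, edgeR adjusted p = 0.956). LRPPRC, which stabilises mitochondrial messengers, was lower with amiloride, at 198, 227 and 226 CPM against 338, 367 and 363 with TG003 and 249.8, 277 and 263 with DMSO. Its log2 difference between the drugs was -0.72, and -0.25 with the junction gradient removed (edgeR adjusted p = 0.0151 after removal).

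**Figure D3:**
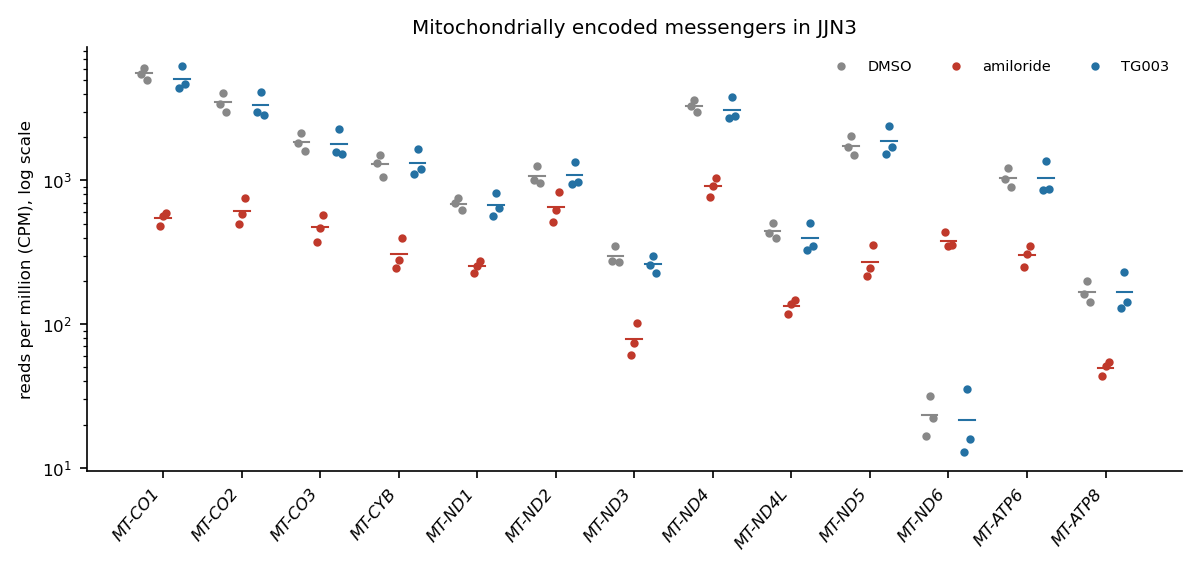
Levels of the 13 mitochondrially encoded messengers in JJN3 in CPM (vertical axis, log scale); points are single libraries and bars are means of 3 libraries. For MT-CO1 the amiloride libraries sit at 481, 564 and 596 CPM, below all TG003 and DMSO libraries, whereas for MT-ND6 they sit at 434, 348 and 358 CPM, above them.

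Genes that define plasma cells were higher with amiloride than with TG003. Of 28 tested factors and surface proteins, 16 were higher with amiloride, none was lower, and the median log2 difference was 0.471. Against DMSO, 19 of the 28 fell and 4 rose with TG003 (median -0.577), while 7 fell and 6 rose with amiloride (median -0.0379). Over the 24 without a near copy and with the junction gradient removed, 16 were higher and 2 lower. The 2 lower ones were the transcription factor IKZF3 and the chemokine receptor CXCR4. The list overlaps the markers used to check the cell type, whose summed level was also lower with TG003, and in bulk samples fewer cells of a type and less RNA per cell cannot be told apart.

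TNFRSF17 (chr16:12059067-12061925), the B cell maturation antigen that myeloma immunotherapies target, stood at 87, 78.6 and 44.3 CPM with amiloride, 109, 91.7 and 95.4 with DMSO and 22, 18.5 and 25.3 with TG003. The TG003 libraries lay below all others, and amiloride library 3 lay between them and the rest (log2 difference 1.67 ± 0.25, edgeR adjusted p = 0.0004). SLAMF7, a surface receptor bound by elotuzumab, was at 2.04, 0.918 and 1 CPM with amiloride and 0.407, 0.405 and 0.345 with TG003, and GPRC5D, another immunotherapy target, at 3.1, 2.01 and 1.44 and 0.703, 0.495 and 0.816. SDC1, the plasma cell proteoglycan CD138, was at 136, 145 and 132 CPM with amiloride, 148, 156 and 171 with DMSO and 81.3, 83.3 and 96.4 with TG003. CD38, an ectoenzyme and antibody target, was at 6.12, 6.55 and 4.4 CPM with amiloride and 2.07, 2.83 and 3.23 with TG003 (log2 difference 1.05 ± 0.21). For each of these surface proteins the drugs' ranges did not overlap and TG003 was the lower group.

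The costimulatory receptor CD28 was at 15, 12.3 and 18.3 CPM with amiloride, 15.2, 14.5 and 18.7 with DMSO and 5.74, 5.8 and 6.5 with TG003. CCR10, a homing receptor of plasma cells, was the member with the largest difference, at 11.3, 8.61 and 10.8 CPM with amiloride, 7.44, 7.46 and 8.06 with DMSO and 2.52, 2.54 and 3.11 with TG003 (log2 difference 1.91 ± 0.14, edgeR adjusted p = 6.41e-08). JCHAIN, the joining chain of polymeric antibodies, was at 2351, 2703 and 3439 CPM with amiloride and 1123, 1289 and 1255 with TG003. ZBP1, a sensor of Z-form nucleic acids, rose with both drugs and more with amiloride, at 13.2, 10.1 and 12.6 CPM against 2.7, 2.15 and 2.41 with DMSO and 3.63, 3.35 and 2.76 with TG003.

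Among the transcription factors, IRF4 (chr6:391739-411443) stood at 984, 867 and 681 CPM with amiloride, 1053, 877 and 839 with DMSO and 457, 432 and 452 with TG003. Amiloride overlapped DMSO and TG003 lay below both (log2 difference 0.92 ± 0.12, edgeR adjusted p = 3.43e-05). PRDM1, the repressor that ends the B cell programme, was not called, at 160.1, 144 and 98.7 CPM with amiloride and 119.9, 111 and 127 with TG003 (edgeR adjusted p = 0.328), nor was XBP1, the secretory factor, at 335, 383 and 308 and 301, 317 and 352 (edgeR adjusted p = 0.459). MZB1, an endoplasmic reticulum cofactor of antibody secretion, fell with both drugs, from 197, 167 and 238 CPM to 94.8, 105 and 92.7 with amiloride and 103, 95.2 and 115 with TG003, and the drugs were not told apart (log2 difference -0.10 ± 0.12). In KMS12-BM, IRF4 was 0.85 from DMSO with amiloride and -1.32 with TG003, TNFRSF17 0.077 and -1.60, and SDC1 -2.39 and -2.12.

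**Figure D4:**
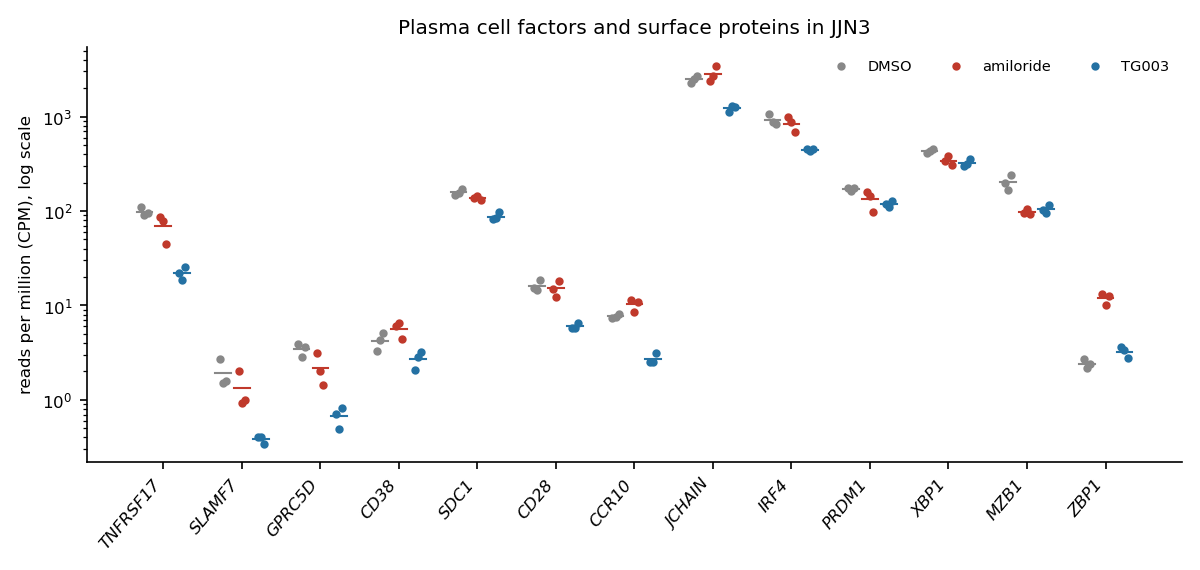
Levels of 13 plasma cell factors and surface proteins in JJN3 in CPM (vertical axis, log scale); points are single libraries and bars are means of 3 libraries. TG003 libraries lie below amiloride libraries from TNFRSF17 to IRF4, the drugs overlap for PRDM1, XBP1 and MZB1, and ZBP1 is high with amiloride at 13.2, 10.1 and 12.6 CPM.

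The aryl hydrocarbon receptor is a ligand-activated transcription factor whose classical targets are cytochrome P450 genes. Of 8 tested genes of its pathway, 6 were higher with amiloride and none lower (median 0.635), and the same counts held after the junction gradient was removed, none having a near copy. CYP1A1 (chr15:75011883-75017877), the classical target, stood at 4.85, 5.16 and 3.86 CPM with amiloride, 1.25, 1.117 and 1.64 with DMSO and 0.851, 0.877 and 1.26 with TG003. Only the amiloride libraries were apart (log2 difference 2.21 ± 0.21, edgeR adjusted p = 8.82e-07). CYP1B1 (chr2:38294116-38337044), another target, lay on both sides of DMSO, at 26, 24.8 and 19.3 CPM with amiloride, 7.33, 9.1 and 7.57 with DMSO and 3.63, 3.26 and 3.8 with TG003. AHRR, the feedback repressor of the receptor, was at 97.4, 101 and 136 CPM with amiloride and 67.6, 72.1 and 67.5 with TG003, with amiloride overlapping DMSO (103, 107 and 105). The other called members were AHR itself (log2 difference 0.44 ± 0.065), TIPARP (0.58 ± 0.11) and NQO1 (1.02 ± 0.18). In KMS12-BM, CYP1A1 was -1.23 from DMSO with amiloride and -0.46 with TG003.

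Immediate-early genes, which are induced within minutes of growth or stress signals, had the highest list median, 0.707. Of 26, 16 were higher with amiloride and none lower. With TG003, 19 of the 26 fell from DMSO and none rose (median -0.689), and with amiloride 4 rose and 6 fell (median 0.118). These genes have few exon junctions (median 0.681 per kilobase against 2.87 over all tested genes), and with the gradient removed the list median was 0.425, with 14 higher and MYC lower. DUSP5, a phosphatase of ERK, stood at 110.2, 105 and 86.6 CPM with amiloride, 142, 164 and 192 with DMSO and 39, 48.4 and 50 with TG003, so it fell with both drugs and further with TG003 (log2 difference 1.13 ± 0.13, edgeR adjusted p = 1.34e-05). DUSP6, a related ERK phosphatase, rose with amiloride to 321, 313 and 329.8 CPM from 178, 197 and 203 and was at 191, 215 and 220.5 with TG003. JUN, a subunit of AP-1, was at 47.1, 31.7 and 37.1 CPM with amiloride and 17.3, 13.2 and 16.5 with TG003, and FOSL2, another AP-1 subunit, at 5.63, 4.59 and 5.32 and 1.74, 1.66 and 2.13. EGR1, a zinc finger factor, overlapped between the drugs, at 56, 64 and 35.8 CPM with amiloride and 28.7, 45.9 and 53.4 with TG003 (edgeR adjusted p = 0.518).

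Genes of amino acid synthesis and the integrated stress response were lower with amiloride. In this response, phosphorylation of eIF2 favours translation of ATF4, which turns on enzymes and transporters for amino acids. Of 29 genes, 17 were lower and 4 higher than with TG003 (median -0.313), and 10 of 23 lower and 4 higher without near copies and gradient. Against DMSO, 20 fell and 1 rose with amiloride (median -0.477), and 10 fell and 4 rose with TG003 (median -0.155). The 4 genes higher than with TG003 were ATF5, TRIB3, PPP1R15A and CEBPB, of which the calls of PPP1R15A and CEBPB were lost without the gradient (edgeR adjusted p = 0.283 and 0.256, with CEBPB turning to -0.12). CEBPB also lost its call without the first TG003 library (edgeR adjusted p = 0.0618).

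PHGDH (chr1:120191034-120286841), the first enzyme of serine synthesis, stood at 52.5, 63.6 and 31.2 CPM with amiloride, 218, 221 and 189 with TG003 and 195, 197 and 160.4 with DMSO. Only the amiloride libraries were low, and library 3 was the lowest (4.27-fold between the drug means, log2 difference -2.09 ± 0.23, edgeR adjusted p = 7.78e-05). ALDH1L2, a mitochondrial enzyme of folate metabolism, was at 21.7, 27.8 and 20.8 CPM with amiloride, 69.2, 84.6 and 66.5 with TG003 and 80.9, 81.3 and 64.3 with DMSO (log2 difference -1.65 ± 0.14). CTH, which makes cysteine from cystathionine, was at 3.43, 3.47 and 2.85 CPM with amiloride and 9.25, 10.3 and 9.54 with TG003. SLC7A11, the cystine importer, was at 5.55, 7.67 and 5.32 CPM with amiloride and 12.3, 15.6 and 10.3 with TG003, and CHAC1, which degrades glutathione, at 4.08, 6.2 and 3.42 and 9.48, 12.7 and 10.8. In all 5 genes TG003 was not called against DMSO, so the difference between the drugs lay on the amiloride side.

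ASNS, asparagine synthetase, and CARS1, the cysteinyl-tRNA synthetase, differed on both sides. ASNS stood at 31.1, 36.5 and 24.9 CPM with amiloride, 57.9, 58.2 and 44.3 with DMSO and 97.5, 109 and 90.1 with TG003 (near copy, log2 difference -1.68 ± 0.15). CARS1 was at 34.6, 35.9 and 29.4 CPM with amiloride, 53.7, 54.4 and 50.3 with DMSO and 93.2, 90.3 and 81.3 with TG003 (log2 difference -1.41 ± 0.088, edgeR adjusted p = 1.37e-08). With the junction gradient removed, the log2 differences between the drugs were -1.43 for ASNS and -0.89 for CARS1, and both stayed called. On the TG003 side the drug and the handling of reads cannot be told apart. ATF4 itself was at 391.8, 393 and 373 CPM with amiloride, 443, 434 and 391 with DMSO and 581, 533 and 516 with TG003, called lower between the drugs but not between amiloride and DMSO (near copy, edgeR adjusted p = 0.173). DDIT3, the stress factor CHOP, overlapped in all groups at 6.45, 7.59 and 8.38 CPM with amiloride and 7.74, 8.26 and 6.75 with TG003 (edgeR adjusted p = 0.934). ATF5, a related factor, went the other way, at 149, 122 and 173 CPM with amiloride, 57.7, 47.8 and 41.5 with DMSO and 36.8, 32.5 and 31.5 with TG003 (log2 difference 2.14 ± 0.14). Before the gradient was removed, the cytosolic aminoacyl-tRNA synthetases as a list stood near the background. Of the 20, 4 were higher (KARS1, NARS1, RARS1 and VARS1) and 7 lower. After removal, 10 were higher and 3 lower (AARS1, CARS1 and WARS1), against 28.9% and 25.9% of all genes without a near copy. The list median moved from -0.0279 to 0.296. RARS1 lost its call without library 3 of either drug (edgeR adjusted p = 0.0772 with amiloride's left out and 0.0586 with that of TG003). In KMS12-BM the amiloride against DMSO values were 0.23 for PHGDH, 1.90 for CTH, 1.56 for CARS1 and 3.11 for DDIT3, the doses being unequal.

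The promoters of ASNS, CHAC1 and CARS1 are shown because each holds TGATGNAA, the letters searched for the element that C/EBP and ATF factors bind at amino acid response genes. Each run is 300 bases from the RefSeq table for GRCh38.p14, which matched 9732 of the 11915 tested genes, and the capitals mark the match in either orientation. TGATGNAA occurs on either strand in 3.67% of all 27305 promoters of the table, in 1.59% of those of tested genes and in 4 of 24 promoters of the stress response list (16.7%), those of ASNS, CHAC1, ATF3 and SLC3A2. CARS1 belongs to the synthetase list.
ASNS (chr7:97872359-97872658, minus strand): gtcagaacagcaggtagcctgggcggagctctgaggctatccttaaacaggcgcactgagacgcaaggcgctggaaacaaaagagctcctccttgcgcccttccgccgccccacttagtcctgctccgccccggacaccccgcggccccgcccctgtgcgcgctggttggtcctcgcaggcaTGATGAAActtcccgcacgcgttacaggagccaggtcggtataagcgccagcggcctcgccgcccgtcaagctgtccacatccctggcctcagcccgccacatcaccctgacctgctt
CHAC1 (chr15:40953221-40953520, plus strand): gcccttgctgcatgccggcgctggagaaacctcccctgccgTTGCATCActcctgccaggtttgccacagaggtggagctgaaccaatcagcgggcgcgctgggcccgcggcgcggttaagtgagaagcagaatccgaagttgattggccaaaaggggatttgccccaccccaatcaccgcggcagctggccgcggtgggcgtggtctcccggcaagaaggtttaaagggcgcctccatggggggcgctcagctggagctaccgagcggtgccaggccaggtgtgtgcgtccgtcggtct
CARS1 (chr11:3057374-3057673, minus strand): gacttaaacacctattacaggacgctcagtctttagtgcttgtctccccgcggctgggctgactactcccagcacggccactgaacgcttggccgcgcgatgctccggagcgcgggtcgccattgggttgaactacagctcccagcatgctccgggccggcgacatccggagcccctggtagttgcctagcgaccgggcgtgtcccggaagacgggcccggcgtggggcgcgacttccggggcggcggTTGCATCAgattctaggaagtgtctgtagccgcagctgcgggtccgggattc

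Hypoxia and glycolysis genes fell with both drugs. The response is run by the hypoxia-inducible factors, which turn on glucose transport, glycolysis and the kinases that inhibit pyruvate dehydrogenase. Against DMSO, 33 of 35 fell with amiloride and none rose (median -0.969), and 28 fell and 2 rose with TG003 (median -0.746). Between the drugs, 15 were lower and 4 higher with amiloride (median -0.207), and 9 lower and 6 higher of the 24 without near copies after removal of the gradient. The 4 higher genes were ADM, SLC16A3, PKM and EGLN1, and the call of EGLN1 (near copy) was lost without the gradient (edgeR adjusted p = 0.0675).

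PFKFB4, which makes the activator of phosphofructokinase, fell from 134, 139.8 and 104 CPM to 11.6, 12.3 and 12.3 with amiloride and 35, 38.2 and 20.6 with TG003. Both drugs lay below DMSO, and amiloride lay below TG003 without overlap (log2 difference -1.37 ± 0.22, edgeR adjusted p = 0.000534). PDK1 (chr2:173420101-173473397), a pyruvate dehydrogenase kinase, fell from 102, 115 and 132 CPM to 24.1, 28.1 and 24.1 with amiloride and 59.2, 58.7 and 57.1 with TG003 (log2 difference -1.20 ± 0.098). ALDOC, an aldolase, fell from 252, 267 and 336 CPM to 67.7, 61.9 and 60 and 138, 132 and 149.8 in the same order of drugs. PDK3, a second kinase of that family, fell only with amiloride, to 3.14, 3.65 and 3.08 CPM against 9, 8.95 and 9.6 with TG003 and 8.36, 9.07 and 9.94 with DMSO. The prolyl hydroxylase P4HA1 and the hypoxia-inducible factor regulator EGLN3 followed the same order (log2 differences -0.76 ± 0.12 and -0.56 ± 0.17).

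NDRG1, a hypoxia-induced gene, fell from 1951, 1981 and 2244 CPM to 944, 838 and 1035 with amiloride and 959.8, 916 and 936 with TG003, and the drugs overlapped (log2 difference 0.0027 ± 0.087). Among the enzymes with near copies, LDHA was at 1792, 1711 and 1631 CPM with amiloride and 1772, 1792 and 1821 with TG003, and neither it nor PGK1 (565, 549.9 and 489.6 against 559.7, 564 and 576) was called. ADM, the vasodilator adrenomedullin, was the member highest above TG003, at 6.61, 8.09 and 10.1 CPM against 3.59, 3.69 and 4.27. With DMSO it stood at 8.79, 14.1 and 22.3, which overlapped the amiloride values. It was called lower than DMSO with both drugs (edgeR adjusted p = 0.0485 with amiloride and 0.00075 with TG003). Its call between the drugs was lost without amiloride library 3 or TG003 library 2 (edgeR adjusted p = 0.0619 and 0.0538). In KMS12-BM, PFKFB4 was -5.96 from DMSO with amiloride and -1.74 with TG003, and PDK1 was -1.09 and -1.10.

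**Figure D5:**
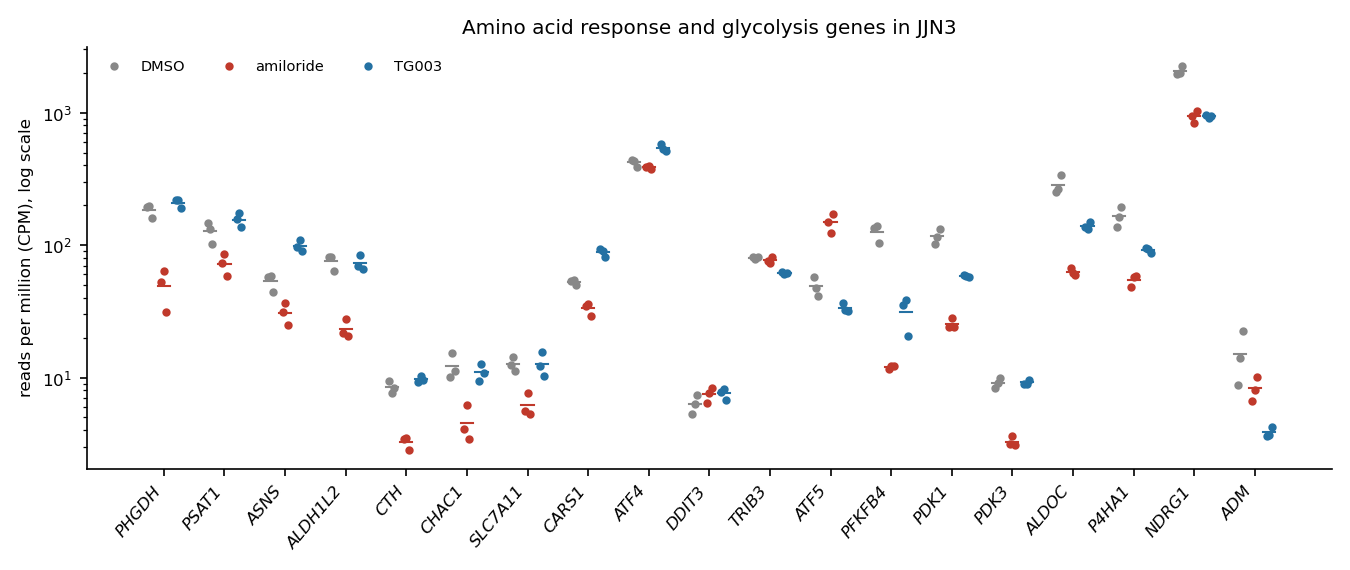
Levels of amino acid response genes (PHGDH to ATF5) and of hypoxia and glycolysis genes (PFKFB4 to ADM) in JJN3 in CPM (vertical axis, log scale); points are single libraries and bars are means of 3 libraries. PHGDH, ALDH1L2, CTH and PDK3 are low with amiloride only, PFKFB4, PDK1 and ALDOC are lower with both drugs and lowest with amiloride, and NDRG1 is lower with both and overlaps between them.

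Cholesterol synthesis genes, which the factor SREBF2 turns on when membranes lack sterol, also fell with both drugs and differed between them in either direction. Against DMSO, 17 of 22 fell with amiloride and 15 with TG003 (medians -0.59 and -0.537). Between the drugs, 5 were higher and 5 lower with amiloride (median 0.0896), and 9 of 18 were higher and the same 5 lower without near copies and gradient. HMGCS1, the synthase that begins the pathway, fell from 447, 515 and 553 CPM to 176, 199 and 200.4 with amiloride and 106, 124 and 119 with TG003, so TG003 lay lowest (log2 difference 0.72 ± 0.093, edgeR adjusted p = 1.84e-05). FDFT1, MSMO1 and IDI1 (near copy) were also higher, with log2 differences of 0.48, 0.52 and 0.29, and the call of IDI1 was lost without the junction gradient (edgeR adjusted p = 0.146). The lower genes were MVK, MVD, LSS, DHCR7 and GGPS1, of which GGPS1 lost the call without amiloride library 3 or TG003 library 2 (edgeR adjusted p = 0.0514 and 0.0783). MVK, mevalonate kinase, was at 13.2, 11.2 and 15.6 CPM with amiloride, 27.2, 22.9 and 23.7 with TG003 and 21.2, 21.2 and 24.7 with DMSO. INSIG1, the sterol sensor partner, fell from 2642, 3178 and 4035 CPM to 774, 806 and 608 and 536, 614 and 796, with overlap between the drugs. NPC1L1, an intestinal cholesterol importer, did not pass the filter on low counts. Of 20 genes of sterol regulation and uptake, 4 were higher, among them ABCA1, FADS1 and ELOVL6, and 6 were lower, whereas 4 of 19 were higher and 5 lower (SREBF1, SCAP, NR1H3, NPC1 and NPC2) without near copies and gradient. ABCA1, the cholesterol exporter, rose only with amiloride, to 10.4, 8.44 and 9.38 CPM from 3.66, 4.66 and 4.99, against 3.78, 3.87 and 4.17 with TG003.

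DNA replication and repair genes were lower with amiloride than with TG003. Replication genes are turned on by E2F factors as cells enter S phase. Of 38 tested, 29 were lower and 1, the cyclin gene CCNE1, was higher (median -0.576). Of 37 repair genes, 28 were lower and FANCF, FANCM and RAD50 were higher (median -0.569). Against DMSO, 22 replication genes fell and 1 rose with amiloride, and 16 rose and 5 fell with TG003, while of the repair genes 22 fell and 3 rose with amiloride, and 22 rose and 3 fell with TG003. The replication genes had a median of 4.39 junctions per kilobase against 2.87 over all tested genes, and on the TG003 side the drug and the handling of reads cannot be told apart. Among genes without near copies and with the gradient removed, 23 of 32 replication genes were lower and 1 higher (median -0.4), 20 of 27 repair genes were lower and 2 higher (median -0.548), and the call of FANCF was lost (edgeR adjusted p = 0.257).

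CDC45, a part of the replicative helicase, stood at 31.5, 42.1 and 27 CPM with amiloride, 71.5, 76.1 and 68.9 with DMSO and 106, 97.1 and 100 with TG003. The groups did not overlap and DMSO lay between (log2 difference -1.59 ± 0.13, edgeR adjusted p = 5.49e-07, and -1 without the gradient). CDT1, which licenses origins, was at 31.4, 24 and 28.7 CPM with amiloride, 46.4, 51.5 and 54.2 with DMSO and 64.6, 52.3 and 62.7 with TG003, and TK1, thymidine kinase, at 142, 145 and 114, 302, 285 and 290.1 and 375, 284 and 321 in the same order. For both genes the amiloride libraries were apart and TG003 was not called against DMSO. POLE2 (chr14:50110273-50155140), a subunit of DNA polymerase epsilon, was apart on the TG003 side, at 5.63, 9.21 and 4.68 CPM with amiloride, 10.5, 7.76 and 5.89 with DMSO and 24.3, 27.1 and 26.5 with TG003 (log2 difference -1.99 ± 0.26, and -1.34 without the gradient). The helicase subunit MCM2 was at 434, 407 and 299.8 CPM with amiloride, 553, 461 and 484 with DMSO and 630.2, 534 and 583 with TG003 (log2 difference -0.61 ± 0.13). RRM2, a subunit of ribonucleotide reductase, fell with both drugs and was not called between them, at 484, 509 and 383 CPM and 491, 486 and 542 (near copy), and neither was TYMS, thymidylate synthase, at 422, 499 and 378 and 505, 479 and 512.

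BRCA2 (chr13:32889223-32974405), which acts in repair by homologous recombination, stood at 13.5, 16.5 and 14.6 CPM with amiloride, 20.3, 26.4 and 20.1 with DMSO and 36.8, 45.5 and 36.7 with TG003. DMSO lay between the drugs without overlap (log2 difference -1.41 ± 0.13). The Fanconi anemia genes for repair of crosslinks had the largest differences of the list, with FANCD2 at 39.9, 48 and 40 CPM with amiloride against 199, 200.1 and 201 with TG003 (near copy) and FANCL at 3.75, 5.16 and 4.25 against 17, 20.4 and 23.5. RAD50, part of the sensor of broken ends, was highest with amiloride, at 109.9, 118 and 127 CPM with amiloride, 98, 108 and 98.7 with TG003 and 84.4, 89.7 and 74.6 with DMSO. Its call was lost when amiloride library 2 or 3 or TG003 library 1 or 3 was left out (edgeR adjusted p between 0.0636 and 0.128).

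Promoters of POLE2, CDT1 and MCM2 are shown because they hold TTTNGCGC, the letters searched for the E2F element on either strand. These letters occur in 1.83% of the 27305 promoters, in 3.16% of the promoters of tested genes and in 16 of 33 promoters of the replication list (48.5%). Capitals mark the matches; in MCM2 a match on each strand overlaps the other.
POLE2 (chr14:49688165-49688464, minus strand): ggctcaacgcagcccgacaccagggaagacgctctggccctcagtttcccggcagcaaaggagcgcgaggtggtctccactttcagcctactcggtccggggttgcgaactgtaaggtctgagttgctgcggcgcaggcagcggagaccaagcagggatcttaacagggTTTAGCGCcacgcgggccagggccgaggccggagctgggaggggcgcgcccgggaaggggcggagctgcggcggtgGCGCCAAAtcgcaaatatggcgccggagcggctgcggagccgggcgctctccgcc
CDT1 (chr16:88803539-88803838, plus strand): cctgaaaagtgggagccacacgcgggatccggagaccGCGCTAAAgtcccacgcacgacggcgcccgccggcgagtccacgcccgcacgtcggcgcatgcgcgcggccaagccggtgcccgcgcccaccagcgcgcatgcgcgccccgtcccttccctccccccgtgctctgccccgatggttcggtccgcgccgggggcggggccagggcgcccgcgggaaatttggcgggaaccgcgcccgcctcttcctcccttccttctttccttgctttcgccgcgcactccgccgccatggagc
MCM2 (chr3:127598161-127598460, plus strand): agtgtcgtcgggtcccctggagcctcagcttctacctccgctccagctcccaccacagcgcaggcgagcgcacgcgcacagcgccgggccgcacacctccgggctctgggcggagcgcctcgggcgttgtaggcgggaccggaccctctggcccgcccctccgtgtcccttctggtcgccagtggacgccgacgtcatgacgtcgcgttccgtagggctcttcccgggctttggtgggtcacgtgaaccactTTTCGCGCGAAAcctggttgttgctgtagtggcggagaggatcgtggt

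Mitotic genes fell more often than they rose with both drugs, and their difference between the drugs depended on the junction gradient. Of 38, 21 were lower with amiloride and AURKA, PLK1 and HMMR were higher (median -0.317), whereas 8 of 31 were lower and 6 higher (median -0.0852) without near copies and gradient. Against DMSO, 26 fell and none rose with amiloride (median -0.416), and 16 fell and 6 rose with TG003 (median -0.122). KIF20A, a kinesin of cytokinesis, stood at 27.8, 35.7 and 29.9 CPM with amiloride, 49, 49.1 and 43.1 with TG003 and 64.3, 63 and 59 with DMSO, lowest with amiloride. PLK1, the polo kinase that drives entry into mitosis, was lowest with TG003, at 259, 226 and 227 CPM with amiloride, 193, 173 and 157 with TG003 and 295, 271 and 254 with DMSO (log2 difference 0.45 ± 0.091, edgeR adjusted p = 0.000826). MKI67, the proliferation marker Ki-67, was at 336, 389.5 and 376 CPM with amiloride and 436, 558 and 448 with TG003 (log2 difference -0.39 ± 0.10).

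Regulators of apoptosis were more often higher than lower with amiloride. Of 28 BCL2 family, caspase and death receptor genes, 17 were higher and 5 lower (median 0.353), and 13 and 5 of 24 without near copies and gradient. MCL1 (chr1:150533371-150552214), the survival protein on which myeloma cells depend most, stood at 707, 695 and 736 CPM with amiloride, 475, 547 and 566 with DMSO and 344, 418 and 424 with TG003. Its groups did not overlap, and amiloride and TG003 lay on opposite sides of DMSO (log2 difference 0.85 ± 0.092, edgeR adjusted p = 3.63e-06). BCL2, the founding survival gene, fell with both drugs and further with TG003, at 235, 225 and 212 CPM, 146, 161 and 169 and, with DMSO, 250.5, 266 and 293. BCL2L1 and BCL2L2, which encode the survival proteins BCL-XL and BCL-W, were lower on the TG003 side (log2 differences 0.58 ± 0.087 and 0.82 ± 0.14).

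The death receptors TNFRSF10A and TNFRSF10B, which bind the ligand TRAIL, were higher with amiloride, the first at 21.6, 21.1 and 27 CPM against 10.6, 13.2 and 12.7 with TG003 and 12, 12.9 and 12.7 with DMSO. The second was at 32, 30.6 and 36.9 CPM with amiloride, 25.3, 25.2 and 25.7 with DMSO and 17, 18.5 and 15.7 with TG003. The 5 lower genes were FAS, APAF1, BCL2L11, BIRC3 and BAK1. BIRC3, an inhibitor of apoptosis induced by NF-kappaB, had the largest of these differences, at 610, 672 and 623 CPM with amiloride, 964, 1043 and 1109.9 with TG003 and 1155, 1397 and 1680 with DMSO (log2 difference -0.71 ± 0.11). FAS, another death receptor, rose with both drugs and more with TG003, at 205, 249 and 221 CPM with amiloride, 313, 314 and 307 with TG003 and 182, 193 and 194 with DMSO. BAK1, a pore-forming effector, was at 57.8, 53.5 and 50.8 CPM with amiloride and 69, 59.3 and 61.8 with TG003 (near copy), and with the reads of its pseudogene added the difference turned to 0.17 and was not called (edgeR adjusted p = 0.0928), and the call was also lost without amiloride library 2 or 3 or TG003 library 1 or 3 (edgeR adjusted p between 0.0564 and 0.138). Of 26 p53 targets, 8 were higher and 10 lower, near the background, and 5 of 22 were higher (GADD45B, BTG2, RRM2B, ZMAT3 and TNFRSF10B) and 9 lower without near copies and gradient. CDKN1A, the cell cycle inhibitor p21, was not called (53.4, 69.3 and 79.7 CPM with amiloride, 56.6, 61 and 57.1 with TG003).

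The messengers of 3 of the 4 CLK kinases, the targets of TG003, were higher with TG003 than with amiloride. CLK1 stood at 48.8, 46.6 and 68.4 CPM with amiloride, 90.1, 109 and 102 with TG003 and 22.9, 26.9 and 26 with DMSO, so it rose with both drugs and more with TG003 (log2 difference -0.87 ± 0.13, edgeR adjusted p = 0.000131). CLK4 rose with TG003 only, at 10.4, 12.3 and 13.3 CPM with amiloride, 25.7, 30.6 and 29.4 with TG003 and 10.2, 13 and 12.9 with DMSO, and CLK2 (near copy) did so too, at 36.4, 44 and 52.5, 106, 116 and 109.8 and 47, 45.8 and 46.5. CLK3 (near copy) overlapped between the drugs at 72.3, 62.8 and 66.6 CPM and 66.1, 57.8 and 57.1 and was not called (edgeR adjusted p = 0.135). With the gradient removed, CLK3 was called higher with amiloride (log2 difference 0.55, edgeR adjusted p = 7.92e-05). Of the 15 kinases of the list, 7 were higher and 5 lower with amiloride, the other lower ones being DYRK1B and SRPK2, and the call of SRPK2 was lost without the gradient (edgeR adjusted p = 0.0606). Of the 11 without near copies and gradient, 5 were higher (SRPK1, DYRK1A, DYRK4, HIPK1 and HIPK3) and 3 lower (CLK1, CLK4 and DYRK1B). In KMS12-BM, CLK1 was 2.49 from DMSO with amiloride and 1.89 with TG003, and CLK4 was 1.38 and 1.82.

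Of 22 SR splicing factors, 7 were higher and 2, SRRM1 and SRSF7, lower with amiloride, and the call of SRSF7 was lost without the gradient (edgeR adjusted p = 0.0618), with other scalings or DESeq2, and without any library but the second amiloride one (edgeR adjusted p between 0.0611 and 0.173). Without near copies and gradient, 6 of 14 were higher and 1, SRRM2, lower. SRSF4 had the largest difference, at 193, 197 and 185 CPM with amiloride, 167, 151 and 147 with DMSO and 96.8, 94 and 97.2 with TG003, with DMSO between the drugs. SRSF1, the founding member, was at 646, 639 and 524 CPM with amiloride and 476, 507 and 505 with TG003 (log2 difference 0.28 ± 0.086), a call lost without the first amiloride library (edgeR adjusted p = 0.0515). LUC7L, a U1 snRNP factor, rose with both drugs, from 26.5, 31.6 and 27.6 CPM to 49.9, 58.9 and 59.9 with amiloride and 42.7, 43.9 and 45.3 with TG003. Core spliceosome genes rose from DMSO in 26 of 45 cases with amiloride and 28 of 45 with TG003 (medians 0.304 and 0.305), and between the drugs 10 were higher and 10 lower, below the background share each way, and 16 of 33 were higher and 3 lower (PRPF4, PRPF39 and AQR) without near copies and gradient. SF3B1, which holds the branch point, was at 497, 536 and 517 CPM with amiloride, 434, 449 and 429.6 with TG003 and 373, 402 and 360.1 with DMSO.

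Of 27 hnRNP genes, 11 were higher and 7 lower, and none of the 12 without a near copy was lower before the gradient was removed. With it removed, 6 of the 12 were higher and 1, PTBP3, lower. Of 17 nonsense-mediated decay genes, UPF2, UPF3B, SMG8, MAGOH and DHX34 were higher and 6 were lower, and of the 12 without near copies and gradient UPF2, UPF3B, SMG5, SMG8 and DHX34 were higher and UPF1, SMG9 and NBAS lower. Of 22 elongation factors, 6 were higher and 6 lower, and 7 of 19 were higher and 4 lower (CDK9, AFF1, NELFB and NELFCD) without near copies and gradient. HEXIM1 and HEXIM2, which hold the elongation kinase P-TEFb inactive, had the largest higher values. HEXIM1 (chr17:43225842-43229466) was at 184, 151 and 160 CPM with amiloride, 92.6, 78.2 and 79.9 with DMSO and 65, 56.5 and 58.9 with TG003. HEXIM2 was at 15, 11.3 and 15.1 CPM with amiloride, 8.04, 6.46 and 6.38 with DMSO and 6.03, 5.29 and 6.06 with TG003 (log2 differences 1.46 ± 0.094 and 1.26 ± 0.14, edgeR adjusted p = 1.98e-08 and 4.24e-06). CDK9, the kinase of P-TEFb, was slightly lower, at 43.9, 43.3 and 41.1 CPM against 54.8, 48.8 and 52.5 with TG003 (log2 difference -0.28 ± 0.072).

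Of 26 genes of the NF-kappaB pathway, 7 were higher and 8 lower, close to the background, and 6 of 25 were higher and 5 lower (NFKB1, NFKBIA, TNFAIP3, BIRC3 and CD83) without near copies and gradient. LTB, the membrane partner of lymphotoxin, rose with amiloride only, at 3.22, 3.5 and 5.77 CPM against 0.605, 0.845 and 1.15 with DMSO and 0.74, 0.9 and 1.04 with TG003. ICAM1, an adhesion molecule, was at 183, 154 and 205 CPM with amiloride, 116, 119.6 and 137 with DMSO and 97.2, 87.9 and 94.6 with TG003 (log2 difference 0.95 ± 0.10). CD83, a surface protein of activated B cells, fell with amiloride only, to 4.57, 5.36 and 4.63 CPM against 11.6, 12.1 and 10.9 with DMSO and 10.9, 10.3 and 11.3 with TG003. NFKB1, a subunit of the factor, was at 130.2, 132 and 125 CPM with amiloride, 164, 172 and 167 with DMSO and 198, 198 and 189 with TG003.

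Among 29 interferon-stimulated genes, 12 were higher and 5 lower with amiloride (median 0.305), and 8 of 26 were higher and 4 lower (STAT2, IFI6, ISG20 and SAMD9) without near copies and gradient. OAS3, a sensor of double-stranded RNA, rose with amiloride, at 5.92, 4.91 and 5.09 CPM against 2.17, 2.23 and 1.64 with DMSO and 2.74, 2.61 and 2.26 with TG003. GBP1, a guanylate-binding protein (near copy), was at 3.06, 2.83 and 4.61 CPM with amiloride, 1.21, 1.63 and 1.1 with DMSO and 0.407, 0.967 and 0.502 with TG003. The 5 lower genes were HERC5, IFI6, IFI44, ISG20 and STAT2, of which HERC5 and IFI44 lost the call without the gradient (edgeR adjusted p = 0.345 and 0.0612). IFI44 also lost it without the second TG003 library (0.0543), and ISG20 without amiloride library 2 or TG003 library 2 or 3 (edgeR adjusted p between 0.0526 and 0.0658).

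Endoplasmic reticulum chaperones and degradation factors fell with both drugs (21 of 32 with amiloride and 19 with TG003), with 11 higher and 8 lower between them, and 12 of 28 higher and 6 lower without near copies and gradient. DNAJB11, a co-chaperone of BiP, had the largest higher difference, at 191, 182 and 178 CPM with amiloride, 158, 153 and 133 with DMSO and 94.1, 93.6 and 89.8 with TG003. HSPA5, which encodes BiP (near copy), fell with both drugs and further with TG003, at 595, 625 and 579.8 CPM, 439, 410 and 427 and, with DMSO, 699, 679 and 701. EDEM2, a mannosidase of glycoprotein disposal, was lower with amiloride, at 22.9, 21.8 and 20.4 CPM against 50.1, 43.5 and 45.7 with TG003. Of 23 heat shock genes 11 were higher and 5 lower, but only 6 of the 23 are without a near copy, and all 6 were higher with the gradient removed. The lower ones among the 23 were HSF2, DNAJB6, CHORDC1, HSPD1 and HSPE1. BAG3, a co-chaperone without a near copy, was at 18.9, 18.2 and 21.2 CPM with amiloride, 15.6, 14.7 and 14 with DMSO and 9.25, 9.61 and 9.2 with TG003 (log2 difference 1.05 ± 0.092).

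Of 36 proteasome genes, 12 were higher and 8 lower, and over the 24 without near copies and gradient 15 were higher and 1, the proteasome gene activator NFE2L1, lower (median 0.35). PSMD6, a subunit of the cap, was at 163, 199 and 179.8 CPM with amiloride, 117, 118 and 109.9 with TG003 and 100, 99 and 106 with DMSO, highest with amiloride. Lysosomal and proton pump genes were higher in 7 and lower in 16 of 36 cases, and in 10 and 6 of 31 without near copies and gradient. The cathepsin genes CTSZ and CTSS had the largest higher values, CTSZ at 34.1, 33.7 and 37.5 CPM with amiloride against 11.3, 10.8 and 8.84 with DMSO and 8.81, 10.3 and 8.29 with TG003, and CTSS at 105, 91.2 and 114, 107, 103 and 119 and 47, 49 and 48. CTSZ was high on the amiloride side and CTSS low on the TG003 side. NRF2 pathway genes were lower in 15 and higher in 7 of 25 cases, and lower in 7 and higher in 7 of 20 without near copies and gradient. GCLC, the catalytic subunit for glutathione synthesis, was at 22.5, 32.7 and 27.2 CPM with amiloride, 56.6, 55 and 54.5 with DMSO and 74, 74.7 and 73.8 with TG003, and NQO1, a quinone reductase, at 38.8, 34.2 and 40, 26, 18.4 and 17 and 23, 18.2 and 14.5.

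Of 28 genes for channels, pumps, carriers and regulators that balance ions and cell volume, 6 were higher and 4 lower. Over the 25 without near copies and gradient, 8 were higher and 7 lower, near the background share each way. SCNN1B, a subunit of the epithelial sodium channel, stood at 44.8, 36.7 and 40.5 CPM with amiloride, 45.9, 41.6 and 48.6 with TG003 and 45.1, 41.9 and 49.5 with DMSO and was not called (edgeR adjusted p = 0.154). SLC12A2, the sodium-potassium-chloride importer, rose with both drugs and more with amiloride, at 49.1, 53.6 and 51 CPM against 35.9, 40.5 and 38.9 with TG003 and 26.8, 29.9 and 29.5 with DMSO. SLC12A4, a potassium-chloride exporter, was lowest with it, at 13.2, 13.1 and 10.8 CPM against 26.3, 25.6 and 28.5 and 20.2, 22.3 and 25.6. SCNN1D and SLC8B1 were also lower (log2 differences -1.63 ± 0.35 and -0.96 ± 0.15).

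Of 57 symbols listed as histones, 23 matched and 18 were tested, most of which lack introns. Of these 18, 3 were higher and 4 lower, and 2 and 9 after removal of the gradient, which moved the list median from -0.161 to -0.553. Among the 6 without a near copy, 2 were higher and 3 lower after that removal. H4C8 and H2BC5 were among the higher genes, H4C8 at 13.4, 10.1 and 12.6 CPM with amiloride against 6.15, 4.99 and 6.03 with TG003, and the call of H2BC5 (near copy) was lost without the gradient (edgeR adjusted p = 0.121), without the first amiloride library (0.0588) and without the second TG003 library (0.0532). H1-2, H1-3, H1-4 and H2AC20 (near copy) were lower, H1-2 at 77.8, 56.8 and 47.4 CPM with amiloride, 62, 42.7 and 64 with DMSO and 144, 86.4 and 133 with TG003. H1-3, H1-4 and H2AC20 were at low levels, with means of 0.456, 0.55 and 0.193 CPM with amiloride and 0.887, 1.13 and 0.723 with TG003. For H1-4 the ranges of the drugs overlapped. H1-3 lost its call when any library but TG003 library 3 was left out and with DESeq2 and voom (adjusted p between 0.0548 and 0.197), and H1-4 without amiloride library 2 or 3 or TG003 library 2 (edgeR adjusted p between 0.0715 and 0.127). Of 42 genes of the MYC network and ribosome assembly, 16 were higher and 8 lower, and 20 and 3 of 34 without near copies and gradient. MXD1, an antagonist of MYC, was at 21.5, 20.3 and 23.8 CPM with amiloride, 13.7, 14 and 16.4 with DMSO and 9.03, 10.8 and 10.6 with TG003. MYC itself fell with both drugs and was not called between them, at 1366, 1215 and 1176 CPM with amiloride, 1455, 1348 and 1444 with TG003 and 1912, 1928 and 1987 with DMSO (edgeR adjusted p = 0.0543).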

How the data were processed

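RNA-seq read counts per gene were deposited, 1 raw table per library, and per the submitters' processing notes the authors used cutadapt 1.4, TopHat2 2.0.11, HTSeq 0.6.1p1 and DESeq2 1.12.4 with build hg19. For alignment options, annotation release and the strand setting of counting, the sources used here give nothing. The authors' normalized tables were not used. Summary records that name no gene were left out, the share of reads in no gene being 6.419% to 7.17% with TG003 and 11.42% to 12.35% in the other JJN3 libraries. The 9 JJN3 libraries (3 with amiloride, 3 with TG003, 3 with DMSO, 23707695 to 44601334 reads in genes each) were fitted together with edgeR 4.0.16 in R 4.3.3 (filterByExpr with a minimum count of 10 and total of 15, TMM scaling, robust quasi-likelihood F test, group as the only term). Benjamini-Hochberg adjustment covered all 15704 tested genes of every class, and a gene was called at an adjusted p under 0.05. The standard error is the log2 difference divided by the square root of F. KMS12-BM was fitted separately. Test scripts were checked on simulated data. Gene classes and coordinates come from GENCODE on GRCh37, which matched 55538 of the 57905 identifiers, and promoters from RefSeq on GRCh38.p14.

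A gene has a near copy where 31-base words of its longest coding transcript recur elsewhere in the genome over at least 5% of the coding or 10% of the transcript length, or where an exon shares at least 50 bases with an annotated pseudogene. The junction gradient was removed per library as a spline with 4 degrees of freedom of log counts on junctions per kilobase. Both alternatives, the block in the comparisons with DMSO, and the 12 largest values per direction without a near copy, were chosen after the data were seen. Genes were named by rule: the 12 largest called differences per direction among genes with no processed pseudogene named after them, at least 5 CPM on average and no overlap, the 2 smallest adjusted p per list and direction, members of counts of 5 or fewer, and a fixed set including CLK1, IRF4, MCL1, MYC, MT-CO1 and MT-ND6. Further list members and EIF2S3, HNRNPA1, NPM1 and PSMC1 were named after their values were seen. Members and all 31 lists (903 genes) were chosen with earlier results of these data known. No 2 of the JJN3 libraries held identical values. Other alternatives were DESeq2 1.42.0, limma-voom 3.58.1, other filters and scalings, the 6 compared libraries alone, pseudogene reads added to parents, a correction for GC content and length, leaving out single libraries, and a block on library order. Libraries were ordered within each group by their title numbers, which differ for every library and run in consecutive sets holding each group once. Some genes that the rule names are not reported here.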

Additional observations from a re-analysis of the deposited data

How the results depend on the processing

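The counts of called genes stayed within 1.5 times of the reported 3419 higher and 3725 lower under the 20 alternatives tried, including those that test fewer genes by construction, whose counts were 2959 and 3091 without named processed pseudogenes and 2817 and 2840 without near copies. Leaving out 1 library at a time gave 3012 to 3272 higher and 3332 to 3618 lower. DESeq2 gave 3460 and 3588, voom 3421 and 3772, the 6 libraries alone 3398 and 3632, and pseudogene reads added to parents 3564 and 3558. Without the junction gradient the counts were 3312 and 3352, 5302 of the 7144 calls were kept, and 18 were called in the opposite direction. The replicate block on library order gave 3611 and 3921. No title number is shared between libraries, so the block used their order within each group, which the labels do not call a pairing. The title numbers run in consecutive sets that each hold a single library of every group, and libraries of the same order share a set. Whether such a set is a batch or a shared culture is not stated. Amiloride and TG003 libraries of the same order correlated at 0.324, 0.303 and -0.0987 in their deviations from group means. The library of the same order correlated highest for 2 of 3, so they were not treated as pairs. TG003 and DMSO libraries of the same order correlated at 0.376, 0.394 and 0.357, and amiloride and DMSO libraries at 0.109, 0.0823 and 0.0255. Against DMSO the replicate block gave 3554 higher and 3461 lower with TG003 (3329 and 3264 without it) and 2919 and 3238 with amiloride (2639 and 2980), and of the 308 named genes it ended 2 and 1 calls and added 5 and 15. Of the 308 named genes, 286 kept direction and call without the gradient, 14 lost the call, 6 gained it and 2 turned: CEBPB to -0.12 (edgeR adjusted p = 0.256) and TFAM to -0.184 (0.0487). With pseudogene reads added, BAK1 turned to 0.17 (0.0928) and PSMC1 to 0.274 (0.0119). List medians moved beyond their margin in 16 of 31 lists without the gradient, changing sign in 4, and in 9 lists without near copies, changing sign in 2. Depth limits low genes such as SCNN1D, at 0.326, 0.149 and 0.205 CPM with amiloride, whose log2 difference was -1.63 ± 0.35 (SE).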
